A study of Mus musculus with 6 samples.

Results

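The genes described here are 45 ribosome biogenesis genes, chosen by symbol as factors of the nucleolus, of rRNA processing and of RNA polymerase I transcription that growing B cells induce. All 45 were among the 23420 genes of the count table, and all 45 passed the minimum of 10 counts over the libraries that left 13682 genes to test. Their RNA was measured in B cells isolated from the spleens of 3 Ahr+/+ and 3 Ahr-/- mice, all labelled with a C57Bl/6J background, with 1 mRNA library per mouse. The methods give the Ahr-/- strain as B6.129-Ahr tm1Bra/J, a germline allele that all cell types carry. Mice were older than 8 weeks and matched for age and sex unless stated otherwise, and the labels give neither for the individual mice. B cells of both genotypes were cultured for 8 h with anti-IgM at 10 µg/ml, which engages the B-cell receptor, and IL-4 at 20 ng/ml. FICZ, a high-affinity ligand of the aryl hydrocarbon receptor (AhR), was added to both at 250 nM for the last 4 h. No unstimulated or FICZ-free library belongs to the comparison, so it measured the effect of genotype in activated, ligand-exposed cells and not the induction of these genes.

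Ribosomes are built mainly in the nucleolus, where RNA polymerase I transcribes a long precursor rRNA. Small nucleolar ribonucleoproteins (snoRNPs) guide its chemical modification, the small subunit (SSU) processome and later factors fold and cut it into the 40S subunit, and a separate set of factors and RNA helicases assembles the 60S subunit. Many genes of this machinery are targets of MYC. Resting B cells enlarge after antigen receptor engagement, and nucleolar growth and ribosome production are part of that growth before division.

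Of the 45 genes, 5 changed between genotypes at an adjusted p under 0.05 in edgeR's quasi-likelihood test (11.1%), while 17.9% of all tested genes did. Nop58, Ncl and Ddx10 fell in Ahr-/- B cells (8.13% of all tested genes fell), and Gar1 and Mrto4 rose (9.79% of all tested genes rose). With DESeq2's size factors in place of TMM the split was 3 lower and 1 higher. By DESeq2's Wald test it was 5 lower and 3 higher, where 1088 of all genes were lower and 1110 higher. The changes were small, from a log2 fold change of −0.17 for Nop58, an 11.2% lower level, to 0.16 for Gar1, an 11.9% higher level. The median log2 fold change of the 45 genes was −0.02 and the median absolute value 0.04, against 0.00 and 0.11 over all tested genes. A log2 fold change below 0 was found for 31 of the 45 (68.9%), against 49.3% of all tested genes. With library size alone the median of the 45 genes was 0.003, a scaling that shifted the median of all genes by a like amount, 0.03 (log2). The 3 Ahr+/+ and 3 Ahr-/- values did not overlap for 15 of the 45 (33.3%), against 33.5% of all tested genes. These were highly expressed genes, with means between 4070 and 179265 normalized counts (counts divided by the TMM-scaled library size relative to the mean of the 6 libraries). Of the 2371 genes at or above the lowest of these means, 22.5% changed, with a median log2 fold change of −0.03 and a median absolute value of 0.06. The number of ribosome biogenesis genes that changed was 2 without Ahr+/+ replicate 1, 3 without Ahr+/+ replicate 3 and 1 without Ahr-/- replicate 2.

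**Figure D1:**
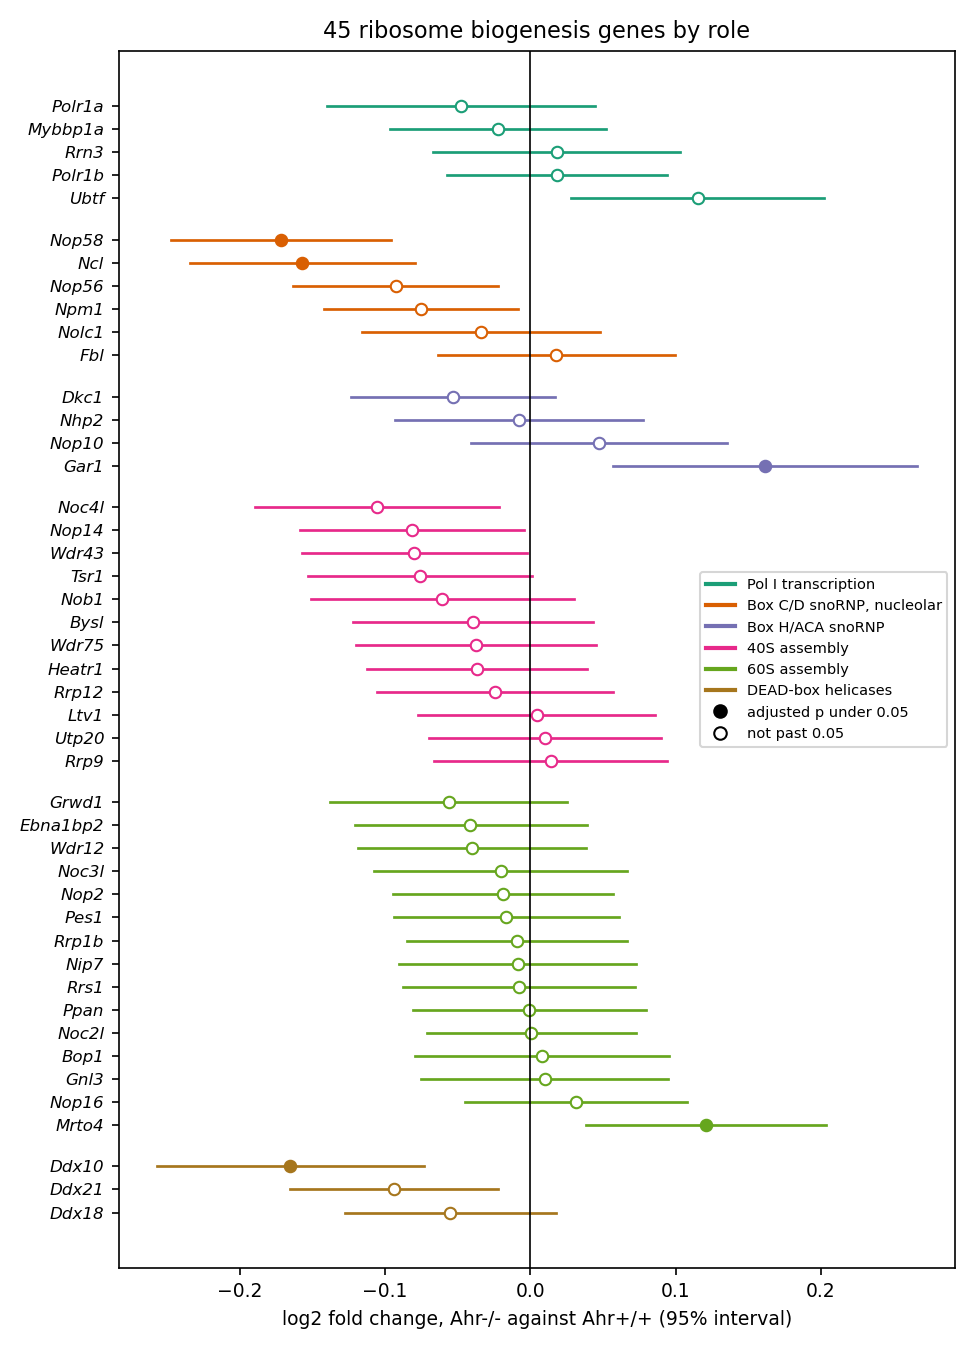
Log2 fold change of each of the 45 genes in Ahr-/- against Ahr+/+ B cells (x axis; 3 mice per genotype), grouped by role on the y axis, with 95% intervals from the edgeR fit as horizontal lines and filled points for an adjusted p under 0.05. The 5 filled points are Nop58, Ncl and Ddx10 to the left of 0 and Gar1 and Mrto4 to the right.

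For the other 40 genes the intervals bound what the data could hold. The 95% interval lay within 0.15 of 0 on the log2 scale (−9.87% to 11%) for 32 of the 40 and within 0.1 for 16. The bound farthest from 0 among the 40 was 0.20, for Ubtf. The coefficient of variation between mice of 1 genotype was 0.423% to 4.17% in Ahr+/+ libraries, with a median of 2.11%, and 0.672% to 6.68% in Ahr-/- libraries, with a median of 2.51%. Total counts per library were 34402709 to 40065169 for Ahr+/+ and 22095096 to 53648787 for Ahr-/-, and no gene of the 45 had fewer than 2248 counts in any library.

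The targeted gene itself was lower in Ahr-/- libraries but still counted, with means of 13175 ± 682 normalized counts in Ahr+/+ and 9174 ± 472 in Ahr-/- (SD over 3 mice each) and −0.52 as the log2 fold change (adjusted p = 7.1e-06 from edgeR). Whether the remaining reads lie outside the part removed by the allele was not examined. None of the 45 genes lies on chromosome 12, which holds Ahr; they are spread over 18 other chromosomes. The B-cell markers Cd79a and Ms4a1 were high in all 6 libraries, between 9565 and 14504 normalized counts. The summed level of 7 B-cell markers was 60120 to 63520 normalized counts in Ahr+/+ and 70380 to 73650 in Ahr-/- libraries, with 4 markers higher and 2 lower at an adjusted p under 0.05. Markers of plasmacytoid dendritic cells were also higher in Ahr-/- libraries, 9 of 10, with a summed level of 5135 to 5948 against 8592 to 10310. Ly6d carried much of this rise (1546 to 1808 against 3837 to 4497), and the scarcer Siglech had 52.3 to 60.6 against 236 to 300. Of 9 conventional dendritic cell markers 5 were higher and 1 lower (835 to 958 against 954 to 1147), and 2 of 4 tested NK cell markers were higher (201 to 269 against 233 to 378, Klra8 at 0 in every library). Among 9 T cell markers 1 was higher and 1 lower (6094 to 6495 against 6148 to 7114), among 7 of monocytes, macrophages and neutrophils 1 was lower (1216 to 1504 against 590 to 1142), and among 5 of plasma cells 1 was higher and 2 lower (15890 to 22380 against 15320 to 17530). The erythroid sums were at most 17.1, with Hba-a1 and Hbb-b1 at 0. The lower macrophage marker was Emr1, at 633 to 662 against 35.6 to 63.5 normalized counts, and the sum of the other 6 overlapped between genotypes (562 to 842 against 554 to 1078); Emr1 was singled out after its values were seen. Sums of B-cell, plasmacytoid dendritic cell and, through Emr1, macrophage markers differed by genotype with no overlap, and those of the other cell types overlapped. Abundant genes weigh most in a sum, as Lck did for T cells, at 5830 to 6737 normalized counts over all libraries. Of the T cell markers Cd3e was lower (23.6 to 43.3 against 13.7 to 14.9) and Cd5 higher (41.8 to 66.3 against 112 to 161). Of the plasma cell markers Igj and Prdm1 were lower and Xbp1 higher (log2 fold changes of −0.92, −0.64 and 0.25). The part of all these markers in the results on ribosome biogenesis genes was not tested. Of 5 sex-linked genes, the Y-linked Ddx3y, Eif2s3y, Kdm5d and Uty had at least 750 normalized counts in each of the 6 libraries and Xist at most 10.3. The sum of the 5 was 14490 to 14890 normalized counts in Ahr+/+ against 12250 to 14090 in Ahr-/- libraries, with Ddx3y and Kdm5d lower in Ahr-/- libraries at log2 fold changes of −0.21 and −0.25 (adjusted p = 0.0097 and 0.0061 from edgeR). In RNA from a bulk culture, fewer cells of a type and less RNA per cell cannot be told apart.

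AhR binds DNA with its partner at a site whose core reads GCGTG. Factors such as MYC and USF bind the E-box, with the letters CACGTG. The promoters of the 3 genes with the smallest adjusted p, Nop58, Ncl and Ddx10, are shown because these genes fell together and to place both motifs in them. They are RefSeq sequences of GRCm38.p6, from 250 bases before to 50 bases after the start of transcription, written 5′ to 3′ on the strand of the gene. Capitals mark GCGTG on either strand, so its reverse complement appears as CACGC. The E-box, which reads the same on both strands, was found in none of these promoters.

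Nop58 (chr1:59684756-59685055, forward strand): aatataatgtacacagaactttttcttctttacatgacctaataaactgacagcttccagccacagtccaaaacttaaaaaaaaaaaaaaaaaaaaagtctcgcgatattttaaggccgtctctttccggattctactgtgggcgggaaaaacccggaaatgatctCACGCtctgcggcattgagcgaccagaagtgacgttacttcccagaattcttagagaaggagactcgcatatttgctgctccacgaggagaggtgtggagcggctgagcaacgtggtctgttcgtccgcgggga

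Ncl (chr1:86359406-86359705, reverse strand): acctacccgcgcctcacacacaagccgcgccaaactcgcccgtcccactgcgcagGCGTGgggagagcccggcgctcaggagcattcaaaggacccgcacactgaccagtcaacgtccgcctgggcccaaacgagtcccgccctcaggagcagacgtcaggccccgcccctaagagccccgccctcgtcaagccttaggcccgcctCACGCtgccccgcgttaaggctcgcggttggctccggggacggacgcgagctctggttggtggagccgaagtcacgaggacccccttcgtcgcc

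Ddx10 (chr9:53248063-53248362, reverse strand): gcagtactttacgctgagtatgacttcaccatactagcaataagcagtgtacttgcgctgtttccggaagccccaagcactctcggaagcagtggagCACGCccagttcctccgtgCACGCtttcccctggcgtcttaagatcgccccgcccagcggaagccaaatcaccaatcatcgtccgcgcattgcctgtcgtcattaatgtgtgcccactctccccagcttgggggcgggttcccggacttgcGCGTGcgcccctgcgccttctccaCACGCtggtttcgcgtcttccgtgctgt

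The Nop58 window held 1 match, on the reverse strand 84 bases before the start. Ncl held 2, at 195 and 44 bases before the start, and Ddx10 held 4, at 153, 134 and 2 bases before and 22 bases after it. These distances are from RefSeq's start, which differs from the start of the GENCODE gene given below for each gene, so that the windows of Ncl and Ddx10 lie wholly upstream of their GENCODE bounds. The table held 49 promoters for 40 of the 45 genes. GCGTG occurred in 32 of the 49 (65.3%), which belong to 30 genes, against 32.4% of all 32851 promoters of the table and 49% of the 12738 promoters of tested genes. Gar1, which rose, had 3 matches, and Mrto4, which also rose, had none. The E-box occurred in 9 of the 49 (18.4%), those of Grwd1, Nop2, Pes1, Mybbp1a, Rrn3, Wdr43, Tsr1, Utp20 and Ltv1, against 7.15% of all promoters and 9.85% of those of tested genes. None of these 9 genes changed at an adjusted p under 0.05 in edgeR or by DESeq2's Wald test, and 1 of them, Wdr43, had an unadjusted p under 0.05, where 11.1% of the 45 genes and 17.9% of all tested genes changed. Both motifs were searched on both strands. Neither contains the other, though matches can overlap in part, and a match is a match of letters only. Both contain the letters CG, and the shares were not matched for base composition or for the number of promoters per gene.

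Box C/D snoRNPs carry the 2′-O-methylation of rRNA. Their core proteins among the 45 genes are Nop58 and Nop56, which hold the guide RNA, and Fbl (fibrillarin), the methyltransferase. This group also took in Ncl (nucleolin) and Npm1 (nucleophosmin), abundant RNA-binding and histone-binding proteins of the nucleolus, and Nolc1 (Nopp140), a snoRNP chaperone. Of the 6 genes 2 fell and none rose (8.13% of all tested genes fell), 4 had no overlap between genotypes (33.5% of all tested genes), and the median log2 fold change was −0.08. Nop58 lies on chromosome 1 of GRCm38 from 59684971 to 59719044 on the forward strand. Its level was 25266, 24635 and 24695 normalized counts in Ahr+/+ replicates 1 to 3, against 21584, 21775 and 22866 in Ahr-/- replicates 1 to 3. All Ahr-/- values were below all Ahr+/+ values, and Ahr-/- replicate 3 was the nearest to the Ahr+/+ range. The log2 fold change was −0.17 (standard error 0.035, 95% interval −0.25 to −0.10, adjusted p = 0.0040 from edgeR). Nop58 alone of the 45 genes passed 0.05 in all 13 alternative fits, with adjusted p between 1.8e-05 and 0.0315.

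Ncl lies on the same chromosome from 86344719 to 86359400 on the reverse strand. Counts of Ncl were the highest of the 45 genes, at 191096, 190308 and 185629 normalized counts in Ahr+/+ against 162686, 168938 and 176936 in Ahr-/- libraries. The groups did not overlap, and the Ahr-/- libraries differed more among themselves than the Ahr+/+ libraries did. Its log2 fold change was −0.16 (standard error 0.036, 95% interval −0.23 to −0.08, adjusted p = 0.0083 from edgeR), and the adjusted p was 0.0658 without Ahr-/- replicate 2. Nop56, the partner of Nop58, had 32194, 31403 and 30877 against 29971, 29483 and 29154 normalized counts, also with no overlap. Its log2 fold change of −0.09 did not pass (95% interval −0.16 to −0.02, adjusted p = 0.0709 from edgeR), though it did by DESeq2's Wald test (adjusted p = 0.0235). Npm1 likewise had no overlap, at 110234, 107562 and 106055 against 101070, 103062 and 103217 normalized counts. The log2 fold change of Npm1 was −0.08 (95% interval −0.14 to −0.01, adjusted p = 0.121 from edgeR). Nolc1 and Fbl overlapped between genotypes, with log2 fold changes of −0.03 (95% interval −0.12 to 0.05) and 0.02 (−0.06 to 0.10). For each gene whose groups did not overlap, the two-sided exact permutation test gave p = 0.1, the smallest that 3 mice against 3 allow.

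**Figure D2:**
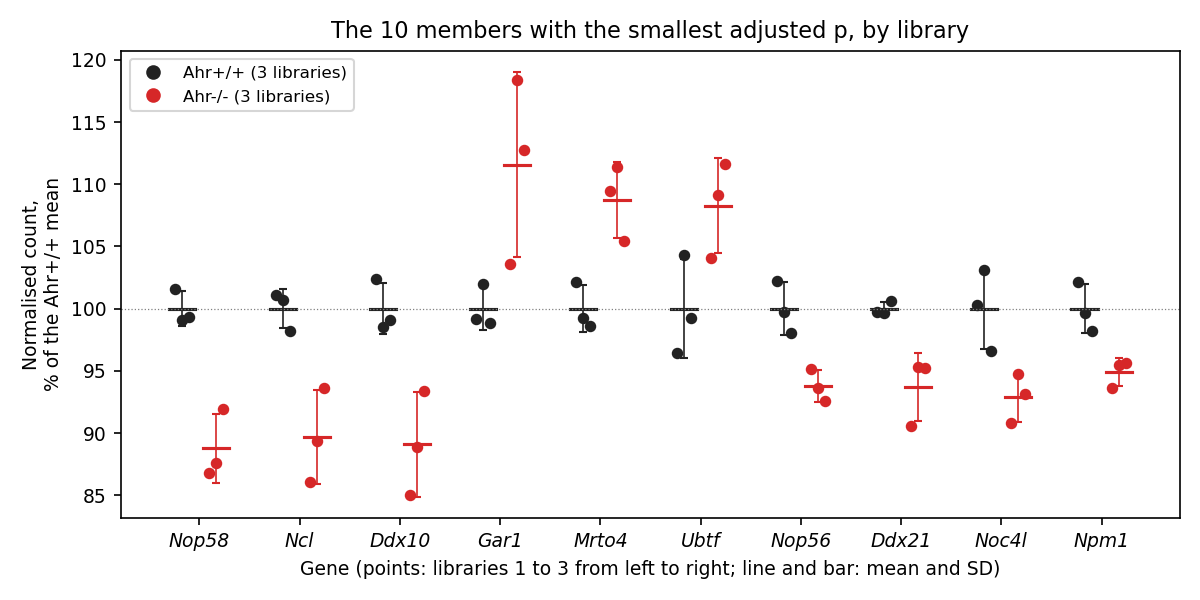
Normalized counts of the 10 genes with the smallest adjusted p, as a percentage of the gene's Ahr+/+ mean (y axis), with 1 point per library and the mean and SD of each genotype (3 libraries each) as a line and bar. Only Ubtf has overlapping groups, at 18809 to 20340 normalized counts in Ahr+/+ and 20304 to 21765 in Ahr-/- libraries.

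Some of these genes also hold snoRNA genes within their bounds. Of the 45 genes 8 did (17.8%), with 23 snoRNA genes between them, against 200 of 12127 tested protein-coding genes matched by name (1.65%). Nop56 held 5, Nop58 held 4 (Snord11 and Snord70 among them), Ncl, Gnl3 and Wdr43 held 3 each, Ppan and Tsr1 held 2 and Dkc1 held 1. Nop58 and Ncl fell and the other 6 did not pass the test (8.13% of all tested genes fell). The libraries were made from polyadenylated RNA, so the counts measure the host mRNAs and not the snoRNAs.

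Box H/ACA snoRNPs convert uridines of rRNA to pseudouridine, and the same proteins bind the telomerase RNA. Dkc1 (dyskerin) is the enzyme, and Nop10, Nhp2 and Gar1 are its 3 partner proteins. Of these 4 genes only Gar1 changed, and it rose (17.9% of all tested genes changed and 9.79% rose). Gar1, on chromosome 3 from 129824912 to 129831396 on the reverse strand, had 3908, 4017 and 3893 normalized counts in Ahr+/+ and 4081, 4663 and 4442 in Ahr-/- libraries. The groups did not overlap, but Ahr-/- replicate 1 lay just above the highest Ahr+/+ library. The log2 fold change was 0.16 (standard error 0.048, 95% interval 0.06 to 0.27, adjusted p = 0.0357 from edgeR). Gar1 passed with Ahr-/- replicate 1 left out, and with none of the other 5 libraries left out (adjusted p = 0.0548 to 0.178, the highest without Ahr-/- replicate 2). Dkc1 had lower values in every Ahr-/- library, 14993 to 15388 against 15594 to 15788 normalized counts, a log2 fold change of −0.05 (95% interval −0.12 to 0.02). The log2 fold changes of Nop10 and Nhp2 were 0.05 (−0.04 to 0.14) and −0.01 (−0.09 to 0.08), with overlapping groups. The difference in response between Gar1 and its partners was not tested.

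The SSU processome and the later 40S factors took in 12 genes, of which none passed the test in edgeR or by DESeq2's Wald test and 3 had an unadjusted p under 0.05 (17.9% of all tested genes passed in edgeR). Groups did not overlap for 4 of the 12 (33.3%, against 33.5% of all tested genes). The median log2 fold change was −0.04, 9 of the 12 were below 0, and the 95% intervals of all 12 lay between −0.19 and 0.09. Noc4l and Nop14, which work together on the pre-40S particle, led the group. Noc4l had 7007, 7202 and 6751 normalized counts in Ahr+/+ and 6342, 6622 and 6505 in Ahr-/- libraries. Its groups did not overlap, and the log2 fold change was −0.11 (standard error 0.039, 95% interval −0.19 to −0.02, adjusted p = 0.0823 from edgeR). Nop14, Wdr43 (a transcription-linked SSU processome subunit) and Tsr1 (a GTPase-like factor of late 40S maturation) also had non-overlapping groups, all with a log2 fold change of −0.08. Heatr1, Wdr75 and Utp20, scaffold subunits of the processome, had −0.04, −0.04 and 0.01. Rrp9, which binds the U3 snoRNA, had 0.01, and Rrp12, an exporter of the pre-40S particle, −0.02. Of the cytoplasmic and late factors, Nob1, the endonuclease that makes the last cut of 18S rRNA, had −0.06, Bysl (bystin), which acts on the pre-40S particle before export, −0.04 and Ltv1, a pre-40S factor that leaves in the cytoplasm, 0.00.

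RNA polymerase I transcription was represented by 5 genes, of which none passed the test in edgeR (17.9% of all tested genes did), with 1 at an unadjusted p under 0.05 and the same gene, Ubtf, past the threshold by DESeq2's Wald test. Polr1a and Polr1b encode the largest subunits of the polymerase, Rrn3 (TIF-IA) links it to growth signals, Ubtf (UBF) opens the rDNA, and Mybbp1a is a nucleolar co-regulator. Ubtf had 18809, 20340 and 19357 normalized counts in Ahr+/+ and 20304, 21288 and 21765 in Ahr-/- libraries. Ahr+/+ replicate 2 and Ahr-/- replicate 1 overlapped. The log2 fold change was 0.12 (standard error 0.040, 95% interval 0.03 to 0.20, adjusted p = 0.0684 from edgeR), and it passed in 4 of the 13 alternative fits, without Ahr+/+ replicate 2 (adjusted p = 0.0338) and without Ahr-/- replicate 1 (0.0364) among them. Polr1a, Polr1b, Rrn3 and Mybbp1a had log2 fold changes of −0.05, 0.02, 0.02 and −0.02, and their 95% intervals lay between −0.14 and 0.10.

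Among the 15 genes of 60S assembly 1 changed (6.67%, against 17.9% of all tested genes). Mrto4, which holds the place of the stalk protein on the pre-60S particle, rose from 5471, 5317 and 5280 normalized counts in Ahr+/+ to 5861, 5968 and 5646 in Ahr-/- libraries. The groups did not overlap. The log2 fold change was 0.12 (standard error 0.038, 95% interval 0.04 to 0.20, adjusted p = 0.0455 from edgeR). Of the 5 changes it had the largest adjusted p. Mrto4 passed with Ahr-/- replicate 3 left out, and with none of the other 5 libraries left out (adjusted p = 0.0657 to 0.184, the highest without Ahr-/- replicate 2). Nor did it pass in edgeR with DESeq2's size factors (adjusted p = 0.0516) or with the replicate number as a block (0.0533). Mrto4 lies on chromosome 4 from 139347435 to 139352576 on the reverse strand. The annotation names the pseudogenes Mrto4-ps1 and Mrto4-ps2, with which its reads may have been split. Pseudogenes were sought only by the gene's own symbol with a -ps ending, so those named otherwise were not covered for any gene. The other 14 genes of 60S assembly had 95% intervals between −0.14 and 0.11. Pes1, Bop1 and Wdr12, the PeBoW complex, had log2 fold changes of −0.02, 0.01 and −0.04. Noc2l and Noc3l, which form nucleolar complexes with the pre-60S particle, had 0.00 and −0.02. Grwd1, a histone and ribosomal protein chaperone, had −0.06, and Ebna1bp2, an early pre-60S factor, −0.04. Nop2, an rRNA cytosine methyltransferase, had −0.02, and Gnl3 (nucleostemin) 0.01. Rrs1, Rrp1b, Nip7 and Ppan, further factors of pre-60S maturation, lay between −0.01 and 0.00. Nop16, a nucleolar 60S factor, was higher in every Ahr-/- library, 5832 to 5951 against 5685 to 5817 normalized counts, with a log2 fold change of 0.03 (adjusted p = 0.610 from edgeR).

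The DEAD-box RNA helicases of the nucleolus were 3 genes with lower values in the Ahr-/- libraries and no overlap (33.5% of all tested genes had none), of which 1 passed the test (8.13% of all tested genes were lower). Ddx10, a helicase of early 40S maturation, had 5827, 5609 and 5640 normalized counts in Ahr+/+ and 4838, 5059 and 5316 in Ahr-/- libraries. Ahr-/- replicate 3 lay nearest to the Ahr+/+ range. The log2 fold change was −0.17 (standard error 0.042, 95% interval −0.26 to −0.07, adjusted p = 0.0164 from edgeR), and it did not pass without Ahr+/+ replicate 1, Ahr-/- replicate 1 or Ahr-/- replicate 2 (adjusted p = 0.0669, 0.0638 and 0.0577). Ddx10 spans chromosome 9 from 53098635 to 53248053 on the reverse strand and overlaps Gm47986 on the opposite strand, and whether the counting used strand is not given in the sources used here, so its count is uncertain to that extent. The same holds for 19 of the 45 genes, while none overlaps a gene on its own strand. Ddx21, which links RNA polymerase I and II transcription to rRNA processing, had 48198, 48155 and 48647 against 43765, 46078 and 46027 normalized counts. Its log2 fold change was −0.09 (95% interval −0.17 to −0.02, adjusted p = 0.0713 from edgeR), and it passed by DESeq2's Wald test (adjusted p = 0.0288). Ddx18, a 60S factor, had 11352 to 11635 against 10921 to 11239 normalized counts and a log2 fold change of −0.06 (95% interval −0.13 to 0.02).

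Together the 45 genes took 2.286%, 2.280% and 2.261% of all counts in Ahr+/+ replicates 1 to 3, and 2.177%, 2.231% and 2.243% in Ahr-/- replicates 1 to 3. Every Ahr-/- library was below every Ahr+/+ library, with a difference of −0.0587 percentage points between the means (p = 0.1 by a two-sided exact permutation test, the minimum here). Ncl and Npm1 alone made up 0.774%, 0.768% and 0.755% of counts in Ahr+/+ and 0.696%, 0.713% and 0.733% in Ahr-/- libraries. Without this pair the share was 1.51% ± 0.00346 against 1.503% ± 0.0197 (SD, n = 3 mice per genotype) and the groups overlapped (two-sided exact permutation test, p = 0.8). Per kb of exon in the annotation, Npm1 and Ncl had the highest levels, 40510 and 18550 normalized counts per kb in Ahr+/+ and 38440 and 16640 in Ahr-/- libraries. Ddx21, Mybbp1a and Noc2l followed, at 8661 to 9336 in Ahr+/+ libraries, and Wdr12 was lowest at 455.5 in Ahr+/+ and 442.9 in Ahr-/-. Exons of all annotated transcripts were merged for these lengths, so genes with long, rarely used exons have levels that are too low.

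**Figure D3:**
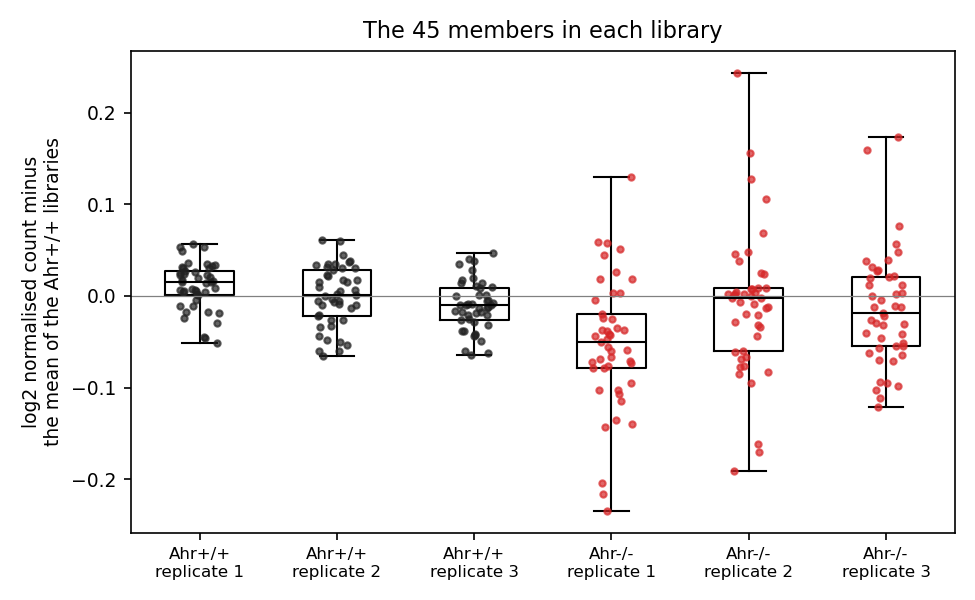
Log2 normalized count of each of the 45 genes minus its mean over the 3 Ahr+/+ libraries (y axis), 1 point per gene, in each of the 6 libraries, with the median and quartiles as a box and the full range as whiskers. The medians are 0.02, 0.00 and −0.01 for Ahr+/+ and −0.05, 0.00 and −0.02 for Ahr-/- replicates 1 to 3.

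Libraries of 1 genotype also differed among themselves. The median of the 45 genes, relative to the Ahr+/+ mean, was −0.05 on the log2 scale in Ahr-/- replicate 1, the library with the lowest total count, and −0.003 and −0.02 in the other 2 Ahr-/- libraries, beside 0.02, 0.001 and −0.01 in Ahr+/+. Across the 6 libraries, pooled over genotypes and sharing 1 scaling, the Pearson correlation of a gene with the median gene, a description only, was highest for Grwd1 (0.974), Ddx21 (0.921) and Nolc1 (0.902) and lowest for Mrto4 (−0.65), Gnl3 (−0.525) and Rrn3 (−0.384).

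A wider list of 126 other ribosome biogenesis genes, all tested, showed 11 genes that fell and none that rose (8.73% changed). Of all tested genes 17.9% changed, 8.13% falling and 9.79% rising. An unadjusted p under 0.05 was found for 26 of the list, against 4020 of all 13682 tested genes. DESeq2's Wald test gave 16 lower and 0 higher in the list, against 1088 and 1110 of all genes. With library size alone 7 of the list were lower and 3 higher, where 919 of all genes were lower and 1621 higher. Without Ahr-/- replicate 2 there were 5, all lower, where 756 of all genes were lower and 908 higher. The median log2 fold change of the list was −0.05, and 81% of its genes were below 0. The leading genes were Nol10, an SSU processome subunit, Eif6, which keeps the 60S subunit from joining early, and Rbm28, a 60S assembly factor. Nol10, at 5326 ± 112 normalized counts in Ahr+/+ and 4195 ± 96.3 in Ahr-/- libraries (SD over 3 mice each), fell by 0.34 on the log2 scale (adjusted p = 3.8e-05 from edgeR). Eif6 fell by 0.33 and Rbm28 by 0.31 on the log2 scale (adjusted p = 4.0e-05 and 4.4e-05 from edgeR), each more than any of the 45 genes. By step, 6 of 45 SSU and 40S genes and 5 of 46 genes of 60S assembly were lower (13.3% and 10.9%, against 8.13% of all tested genes), and none of 12 genes of RNA polymerase I transcription, 9 of snoRNP assembly and 14 of the RNA exosome passed the test, where 0, 0 and 2 had an unadjusted p under 0.05.

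Ribosomal proteins are the components that this machinery assembles. Of 77 tested cytosolic ribosomal protein genes, 8 rose and none fell (10.4% changed, against 17.9% of all tested genes, and 9.79% that rose). An unadjusted p under 0.05 was found for 18, against 4020 of all 13682 tested genes. DESeq2's Wald test gave 11 higher and 0 lower, against 1110 and 1088 of all genes. The ribosomal protein genes had a median log2 fold change of 0.04 and 9.09% of the genes below 0, against 49.3% of all tested genes. With library size alone 15 rose and none fell, where 1621 of all genes rose and 919 fell. Leaving out 1 library moved the count of 8 to between 2 (without Ahr-/- replicate 2) and 15 (without Ahr-/- replicate 3), with 3 without Ahr+/+ replicate 1 or Ahr+/+ replicate 3 and 4 without Ahr-/- replicate 1. The difference between the ribosomal protein genes and the 45 assembly genes was not tested.

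**Figure D4:**
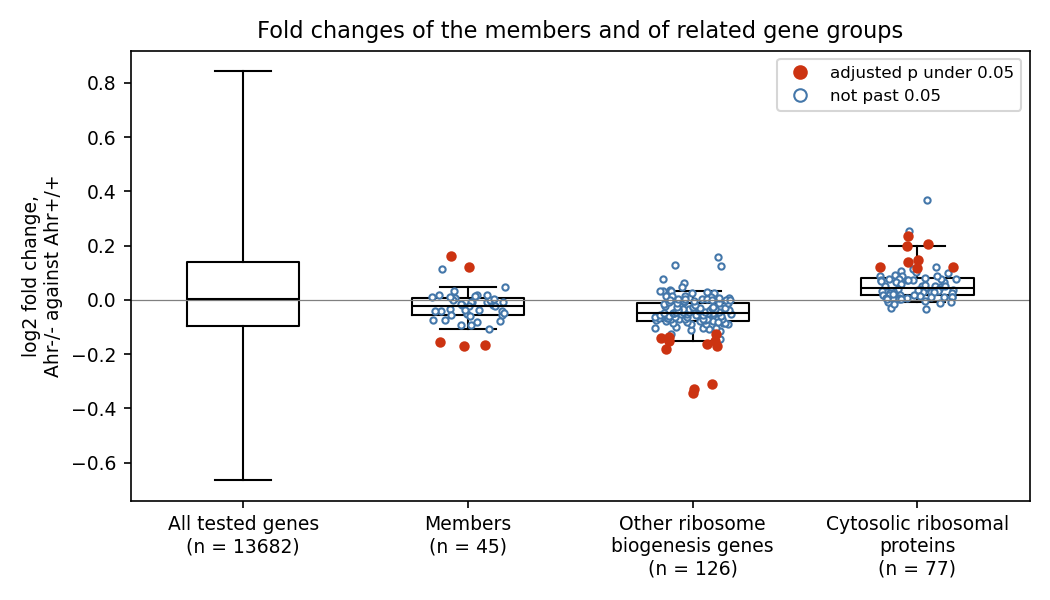
Log2 fold change in Ahr-/- against Ahr+/+ B cells (y axis) of all 13682 tested genes, the 45 genes (labelled members), 126 other ribosome biogenesis genes and 77 cytosolic ribosomal protein genes, with boxes for quartiles, whiskers for the central 90% of genes and points for single genes, filled at an adjusted p under 0.05. The medians are 0.00, −0.02, −0.05 and 0.04.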

How the data were processed

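Polyadenylated RNA of 6 B-cell cultures, 1 per mouse and 3 per genotype, was sequenced from stranded libraries, and replicate numbers come from the labels. For each gene symbol the authors deposited the raw count of reads per library. Their processing notes name TopHat2 (version 2), HTSeq, DESeq and the build mm10, while the strand setting is not given in the sources used here. Their normalized counts and the table of their own comparison (fold changes and p-values) were not used. Total counts per library were 22095096 to 53648787, and a level of 3 counts corresponded to 0.0559 to 0.136 CPM.

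Genes with at least 10 counts in total were tested in R 4.3.3 with edgeR 4.0.16 (TMM scaling, quasi-likelihood fit with genotype as the only term, prior count 0.125), and p-values were adjusted by Benjamini–Hochberg over all 13682 genes. The 95% intervals used the standard errors and degrees of freedom of the fit (limma 3.58.1). The procedure was also run on simulated data. The changes planted there were all larger than any found among the 45 genes, so that run does not bear on changes this small. Chi-square per degree of freedom between libraries of 1 genotype was 3.8 to 8.8, above sampling noise, and none was treated as a duplicate. Alternatives were DESeq2 1.42.0 (size factors; Wald test), a robust fit, library size alone, a minimum of 10 counts in 3 or more libraries, no filter, the replicate number as a block, an adjusted p under 0.01 and leaving out each library.

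All 45 genes were named by role, the 10 with the smallest adjusted p with their values in every library, and outside them Ahr and the leading genes of the wider list; the markers named beside them check the labelled cell type, and 1 B-cell marker is not reported here. The 45 genes and all lists were chosen with earlier results of these data known. Positions, overlaps and snoRNA genes come from GENCODE M21 (GRCm38), which held all 45 symbols, and promoters from RefSeq (GRCm38.p6).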

Additional observations from a re-analysis of the deposited data

How the results depend on the processing

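Of 585 values of the 45 genes under 13 alternative fits, no changed gene reversed, and the largest move was 0.05 on the log2 scale. Among genes that did not pass, 18 changed sign under some alternative. The count of 5 changed genes was 8 by DESeq2's Wald test, with Ubtf (adjusted p = 0.0456), Nop56 (0.0235) and Ddx21 (0.0288) added. That test called 2198 genes in all, against 2453 in the main fit. At an adjusted p under 0.01 the count of 5 became 2, and with 1 library left out it ranged from 1 to 4. At an adjusted p under 0.01 there were 1473 changed genes in all, 6 in the wider list and 2 among ribosomal protein genes. With 1 library left out these were 1664 to 2601, 5 to 15 and 2 to 15 at 0.05. Scaling by library size alone gave 2540 changed genes in all, 15 ribosomal protein genes among them, and a median log2 fold change of 0.0031 for the 45 genes. The 37 genes outside the 8 named by the Wald test passed under no fit.

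The replicate numbers of the labels are not said to pair mice, and same-numbered libraries did not deviate together (correlations −0.03, 0.12 and −0.045). With the replicate block 4 of the 45 genes changed, 3 lower and 1 higher, Mrto4 being lost at an adjusted p of 0.0533; counts with the block were 2304 genes in all, 8 in the wider list and 9 ribosomal protein genes.

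Each of the 45 genes had at least 2248 counts in every library. Ahr-/- replicate 1, with the lowest total count of 22095096, also had the lowest median of the 45 genes, and the part of depth in the results was not tested. With 3 mice per genotype and a median standard error of 0.037 on the log2 scale, changes of a few percent could not be called.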
